A study of Mus musculus with 10 samples.

Results

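Non-myelinating Schwann cell markers were followed in mouse dorsal root ganglia as 7 genes, Scn7a, Cdh19, Gfap, Ncam1, L1cam, Matn2 and Sox2. They were chosen by name, as genes used to recognise Remak and other non-myelinating Schwann cells, and all 7 were found by gene symbol among the 23923 genes deposited. All 7 passed the filter on low counts that left 17439 genes for testing. Polyadenylated RNA was sequenced from 5 ganglion samples of the genotype Kif2a fl/fl; Avil cre, called Kif2a_cKO here, and from 5 of the genotype Kif2a fl/fl without cre, called control, all at 1 month of age. The floxed Kif2a allele was therefore shared by both groups, and cre, under the Avil promoter that is active in sensory neurons, was present in Kif2a_cKO alone, so an effect of cre itself and of the loss of Kif2a cannot be told apart. Nothing in the labels says that each sample came from a separate animal, and the p-values then measure the spread between these samples, which may be technical.

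Remak Schwann cells enclose several thin unmyelinated axons, many of them nociceptive C fibres, in troughs of their surface, and together with those axons form a Remak bundle. Unlike myelinating Schwann cells, which wrap a single larger axon and switch on myelin genes, they keep adhesion molecules and intermediate filaments of immature Schwann cells. None of the 7 genes belongs to these cells alone. L1cam and Ncam1 are also made by neurons, Gfap is the classic marker of astrocytes, and Sox2 and Cdh19 are also known in satellite glia, the cells that cover the sensory neuron bodies. Counts from whole ganglia add up all cells, so fewer cells of a type and less RNA per cell cannot be told apart.

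Total counts ran from 28686616 to 73031457 in Kif2a_cKO libraries and from 17506135 to 34500320 in control libraries. The 9 listed sensory neuron genes summed to between 14906 and 19198 CPM in Kif2a_cKO and between 11085 and 18204 CPM in control libraries (CPM, the count scaled to the library size with TMM factors). Nefm, Nefl, Tubb3 and Uchl1 were the most abundant of them, and the sum does not by itself identify the tissue. Total Kif2a transcript was 69.0 ± 4.44 CPM in Kif2a_cKO and 70.2 ± 8.61 CPM in control (SD, n = 5 each), which counts all exons and all cells and does not check the deletion. Avil had 383 ± 55.0 CPM in Kif2a_cKO and 678 ± 149 CPM in control (SD, n = 5 each). Libraries also differed in transcripts of the central nervous system: 19 genes of astrocytes, oligodendrocytes and spinal neurons summed to 188, 67.8, 324, 335 and 309 CPM in Kif2a_cKO 1 to 5 and to 768, 96.1, 2277, 99.8 and 780 CPM in control 1 to 5. Control 3 stood apart, and controls 1 and 5 lay above every Kif2a_cKO library, while controls 2 and 4 were among the lowest. Of these 19 genes, Opalin and Gad2 were at 0 in at least 1 Kif2a_cKO library, and Gad2, Slc32a1 and Chat in at least 1 control library. The mean log2 CPM of the 19 genes was 1.44 ± 1.07 in Kif2a_cKO and 2.70 ± 2.64 in control (SD, n = 5 each, exact permutation p = 0.349, two-sided).

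No member differed between the groups past the threshold, which was a Benjamini-Hochberg adjusted p under 0.05 over all tested genes in the edgeR quasi-likelihood test. edgeR called 0 of the 7 members, against 0.0172% of all tested genes. Scn7a and Cdh19 were higher in Kif2a_cKO at an unadjusted p under 0.05, which 2.97% of all tested genes were in that direction, and no member was lower at that level, against 4.01% of all genes. DESeq2 also called 0 members, against 0.17% of the genes it tested, and there Gfap was lower at an unadjusted p of 0.0433 (adjusted p = 0.664). In none of the 7 did the 5 Kif2a_cKO libraries lie wholly above or below the 5 control libraries, a separation seen in 1.17% of tested genes. The median log2 fold change of the members was 0.037, with 4 of 7 above 0, beside a median of 0.0073 over all tested genes. In the authors' deposited table none of the 7 passed the authors' own thresholds, which 31 of the 23923 genes did. Those thresholds set a minimum fold change as well as a false discovery rate. Apart from Gfap, the log2 fold changes of the members there lay between -0.24 and 0.25.

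**Figure D1:**
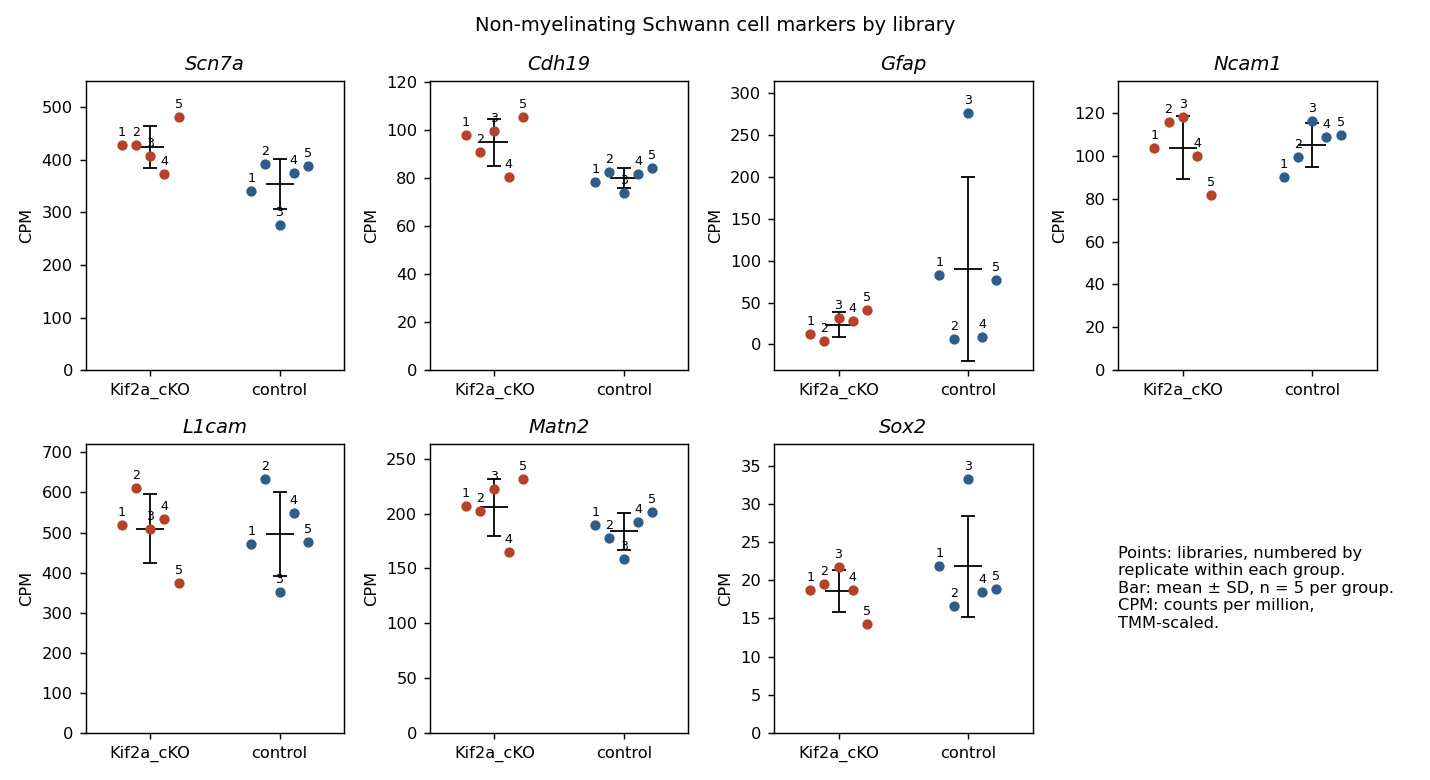
Level of each marker in CPM (linear axis) in each library, numbered by replicate, with Kif2a_cKO on the left and control on the right of each panel and bars for the mean and SD (n = 5 per group). The groups overlap in all 7 panels, and control 3 carries the highest Gfap, 276 CPM, and the highest Sox2, 33.2 CPM.

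Scn7a encodes an atypical sodium channel protein that responds to extracellular sodium rather than to voltage, and it is a marker of Remak Schwann cells. The gene lies on chromosome 2 from 66673425 to 66784914, minus strand (GRCm38). Scn7a had 427, 428, 407, 372 and 482 CPM in Kif2a_cKO 1 to 5, and 341, 391, 275, 375 and 387 CPM in control 1 to 5. Kif2a_cKO 1, 2, 3 and 5 lay above every control, and Kif2a_cKO 4 lay within the control range. The mean was 423 ± 39.8 CPM in Kif2a_cKO and 354 ± 48.2 CPM in control (SD, n = 5 each), a log2 fold change of 0.26 (SE 0.105, 95% interval 0.033 to 0.49). Its unadjusted p was 0.0282 and its edgeR adjusted p was 0.703. The unadjusted p was no longer under 0.05 without Kif2a_cKO 1 (0.0501), without Kif2a_cKO 5 (0.0741), without control 1 (0.0582), without control 3 (0.0623, log2 fold change 0.16), with scaling to library totals alone (0.0538), or with the central nervous system covariate (0.0622). Without Kif2a_cKO 5 the log2 fold change was 0.20, and without control replicates 1, 3 and 5 together it was 0.14 (edgeR adjusted p = 0.991).

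Cdh19, a type II cadherin of Schwann cell precursors, Schwann cells and satellite glia, showed nearly the same log2 difference. It lies on chromosome 1 from 110888326 to 110977584, minus strand. Cdh19 had 98.0, 90.7, 99.5, 80.3 and 106 CPM in Kif2a_cKO 1 to 5, and 78.3, 82.5, 73.8, 81.8 and 84.2 CPM in control 1 to 5. Again Kif2a_cKO 4 alone fell inside the control range, and the other 4 Kif2a_cKO libraries were above all 5 controls. The group means were 94.8 ± 9.70 CPM in Kif2a_cKO and 80.1 ± 4.11 CPM in control (SD, n = 5 each), with a log2 fold change of 0.24 (SE 0.0785, 95% interval 0.073 to 0.41). The unadjusted p was 0.00877, the lowest of the 7 members, and the edgeR adjusted p was 0.703. In DESeq2 the log2 fold change of Cdh19 was 0.23 (adjusted p = 0.400), and in the authors' deposited table it was also 0.23, with a false discovery rate of 0.335. Without control replicates 1, 3 and 5 it was 0.21 (SE 0.113).

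Matn2 encodes matrilin-2, an adaptor protein of the extracellular matrix around Schwann cells, on chromosome 15 from 34306677 to 34436273, plus strand. Matn2 had 207, 203, 223, 165 and 231 CPM in Kif2a_cKO 1 to 5, and 190, 177, 158, 192 and 201 CPM in control 1 to 5. Its order of libraries resembled that of Cdh19, with Kif2a_cKO 5 and 3 at the top, Kif2a_cKO 4 at the bottom of its group and control 3 lowest of all. The mean was 206 ± 25.7 CPM in Kif2a_cKO and 184 ± 16.6 CPM in control (SD, n = 5 each). On the log2 scale this was a fold change of 0.16 with an SE of 0.0981 (95% interval -0.050 to 0.37). Its edgeR adjusted p was 0.742, and without control 3 the value was 0.095 (SE 0.0964).

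L1cam and Ncam1, immunoglobulin-family adhesion proteins found on both unmyelinated axons and their Schwann cells, had group means close to each other. L1cam (X chromosome, 73853778 to 73896105, minus strand) had 519, 611, 510, 535 and 374 CPM in Kif2a_cKO 1 to 5, and 472, 633, 351, 550 and 477 CPM in control 1 to 5. The lowest library of each group was also the one with the lowest summed sensory neuron level of that group, Kif2a_cKO 5 at 14906 CPM and control 3 at 11085 CPM, while control 5, at 14791 CPM, had the median L1cam level of its group. The part of neuronal transcript in this difference between libraries was not tested. The L1cam mean was 510 ± 85.6 CPM in Kif2a_cKO and 497 ± 104 CPM in control (SD, n = 5 each), with a log2 fold change of 0.037 (SE 0.155, 95% interval -0.30 to 0.37, edgeR adjusted p = 0.987). The sign of the L1cam value was negative without control 3 (-0.079) and without control replicates 1, 3 and 5 (-0.21, SE 0.160). Those controls held the least L1cam of their group, so leaving them out lowers the value and does not test its direction.

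Ncam1 (chromosome 9 from 49502136 to 49798925, minus strand) had 104, 116, 118, 99.8 and 81.6 CPM in Kif2a_cKO 1 to 5. Control libraries 1 to 5 had 90.1, 99.7, 116, 109 and 110 CPM of Ncam1. The lowest library of the 10 was Kif2a_cKO 5, the one with the highest Scn7a and Cdh19. The Ncam1 mean was 104 ± 14.7 CPM in Kif2a_cKO and 105 ± 10.2 CPM in control (SD, n = 5 each), a log2 fold change of -0.015 (SE 0.104, 95% interval -0.24 to 0.21, edgeR adjusted p = 0.993).

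Gfap, the glial intermediate filament protein that marks astrocytes and, in nerves, non-myelinating Schwann cells, varied more than any other member. It lies on chromosome 11 from 102887336 to 102900912, minus strand. Gfap had 12.6, 4.44, 31.6, 27.9 and 41.1 CPM in Kif2a_cKO 1 to 5, and 82.6, 5.95, 276, 9.07 and 77.3 CPM in control 1 to 5. The highest library held 62.2 times the level of the lowest, against 1.43 to 2.34 times for the other 6 members. Controls 1, 3 and 5 lay above every Kif2a_cKO library, and controls 2 and 4 lay between the 2 lowest of them, Kif2a_cKO 2 and Kif2a_cKO 1. The mean was 23.5 ± 14.8 CPM in Kif2a_cKO and 90.2 ± 110 CPM in control (SD, n = 5 each), a log2 fold change of -1.94 (SE 1.04, 95% interval -4.31 to 0.42, edgeR adjusted p = 0.727). Control replicates 1, 3 and 5 held the most Gfap of the 10 libraries, so leaving them out fixes a positive sign and does not test the direction. The value was then 1.67 on the log2 scale (SE 0.918, edgeR adjusted p = 0.991). With limma-voom and sample quality weights it was -0.87 (SE 1.08), and it was 0.19 (SE 0.378) with the mean log2 CPM of the 19 central nervous system genes as a covariate.

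The astrocyte genes followed the same libraries as Gfap. Their summed level (Slc1a2, Aqp4, Aldh1l1, Gjb6, Slc6a11, Agt and Slc7a10) was 96.4, 46.1, 94.7, 125 and 94.0 CPM in Kif2a_cKO 1 to 5, and 240, 52.8, 761, 56.3 and 250 CPM in control 1 to 5. The 3 libraries with the most Gfap were the 3 with the highest astrocyte sum, and the 3 with the least Gfap were the 3 with the lowest. Kif2a_cKO 5 had the most Gfap of its group and the second lowest astrocyte sum of that group. The link was not particular to astrocyte genes. The oligodendrocyte genes summed to 81.2, 20.6, 223, 189 and 209 CPM in Kif2a_cKO 1 to 5, and to 478, 42.7, 1290, 42.1 and 448 CPM in control 1 to 5. Gfap per unit of the astrocyte sum was 0.130, 0.0962, 0.334, 0.223 and 0.437 in Kif2a_cKO 1 to 5, and 0.343, 0.113, 0.363, 0.161 and 0.309 in control 1 to 5, and the groups overlapped. Spinal neuron genes summed to only 1.07 CPM in Kif2a_cKO 2 and 0.645 CPM in control 2. Agt was still at 15.2 and 16.6 CPM there, Aldh1l1 at 12.2 and 10.9 CPM, and Gjb6 at 8.08 and 11.4 CPM. The ratio is therefore not a measure of Gfap per astrocyte. All 7 astrocyte genes had a log2 fold change below 0 (median -1.90), and none was called. Slc1a2, an astrocyte glutamate transporter, had 25.7 ± 16.4 CPM in Kif2a_cKO and 96.6 ± 122 CPM in control, and Slc7a10, an amino acid transporter, had 2.13 ± 1.47 CPM in Kif2a_cKO and 9.86 ± 12.6 CPM in control (SD, n = 5 each). The part of astrocyte transcript in the Gfap values was not tested. The covariate fit cannot single it out, because the covariate also holds oligodendrocyte and spinal neuron genes and was chosen after seeing the data.

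**Figure D2:**
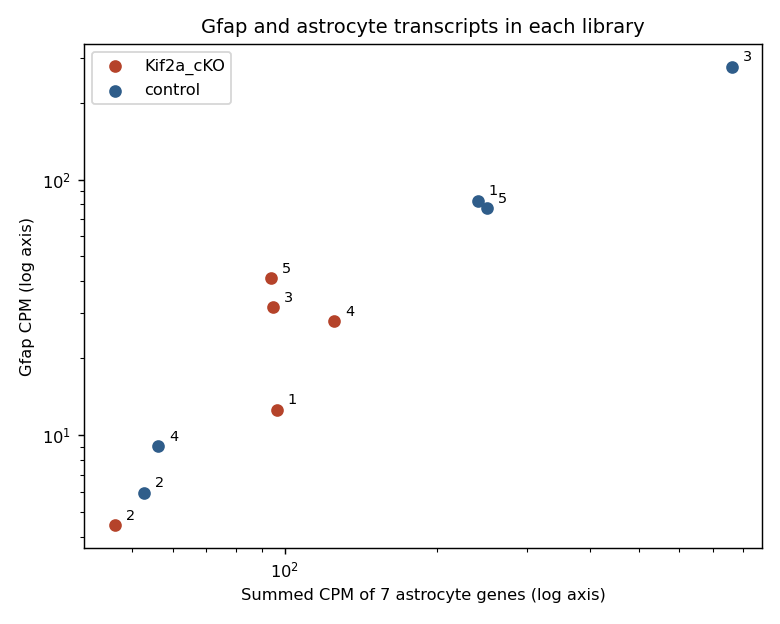
Gfap (CPM, log axis) against the summed level of 7 astrocyte genes (CPM, log axis) in the 10 libraries, coloured by group and numbered by replicate. Control 3 sits at the top right with 276 CPM of Gfap, and Kif2a_cKO 2 at the bottom left with 4.44 CPM.

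Sox2, a transcription factor of immature and repair Schwann cells, satellite glia and neural stem cells, had the lowest CPM of the members when averaged over the 10 libraries. It is on chromosome 3 from 34650405 to 34652461, plus strand, inside the longer non-coding gene Sox2ot on the same strand, so its counts may be shared with Sox2ot. Sox2 had 18.8, 19.5, 21.8, 18.8 and 14.2 CPM in Kif2a_cKO 1 to 5, and 21.8, 16.7, 33.2, 18.5 and 18.9 CPM in control 1 to 5. Control 3 stood far above the Kif2a_cKO range and control 1 just above it, the other 3 controls lay inside it, and the library with the least Sox2, Kif2a_cKO 5, was the one with the most Scn7a. The mean was 18.6 ± 2.74 CPM in Kif2a_cKO and 21.8 ± 6.64 CPM in control (SD, n = 5 each), a log2 fold change of -0.23 (SE 0.177, 95% interval -0.62 to 0.15, edgeR adjusted p = 0.815). Without control 3 it was -0.047 (SE 0.123), with the covariate -0.067 (SE 0.150), and without control replicates 1, 3 and 5 it was 0.085 (SE 0.154). Those controls held the most Sox2 of their group, so leaving them out raises the value and does not test its direction. Sox1, a relative of Sox2 in the central nervous system, was at 3.71, 6.34 and 1.79 CPM in controls 1, 3 and 5, and at most at 1.01 CPM in the other 7 libraries.

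**Figure D3:**
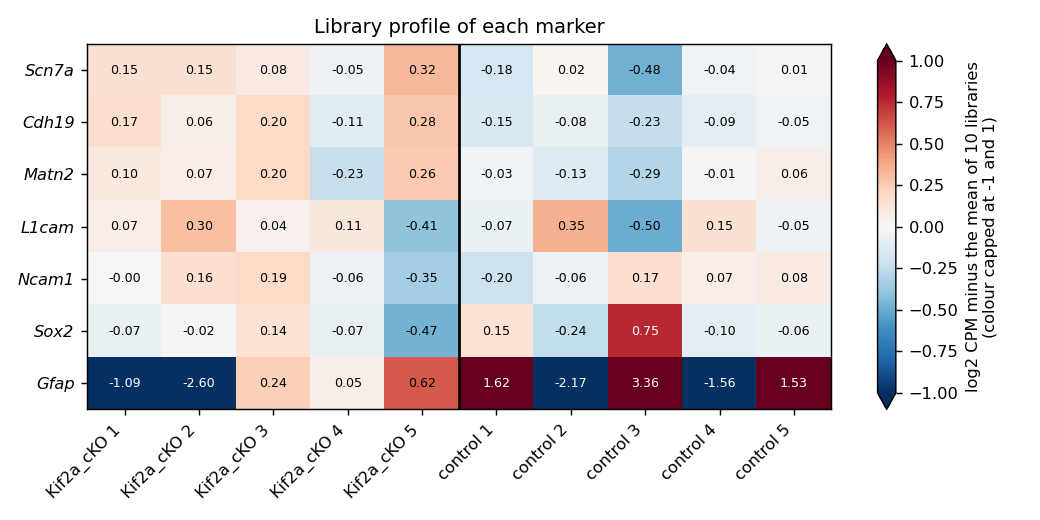
Log2 CPM of each marker minus its mean over the 10 libraries (rows, markers, and columns, libraries, with Kif2a_cKO left of the black line and control right of it). Scn7a, Cdh19 and Matn2 are all highest in Kif2a_cKO 5 and lowest in control 3, whereas Sox2 is lowest in Kif2a_cKO 5 (-0.47) and highest in control 3 (0.75).

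**Figure D4:**
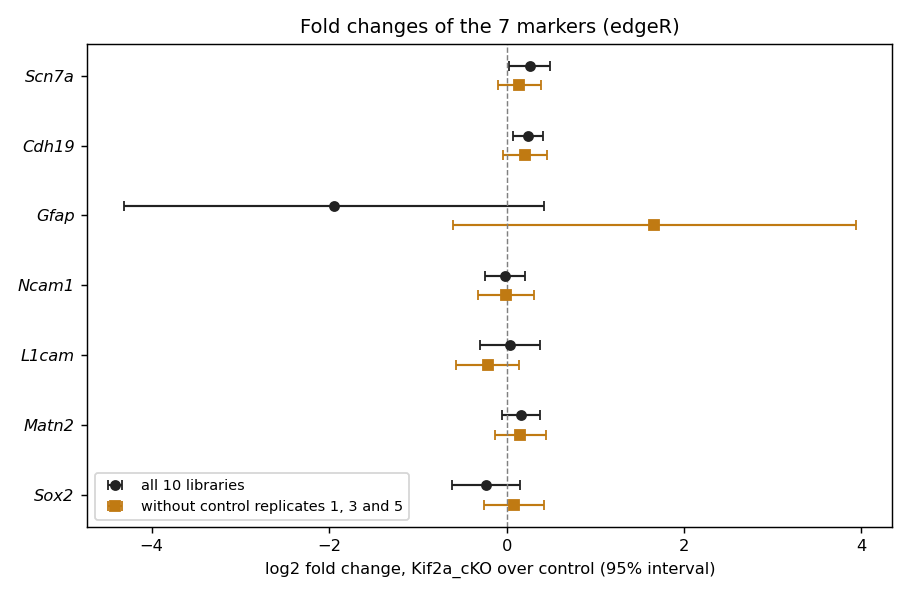
Log2 fold change of each marker, Kif2a_cKO over control, with its 95% interval from edgeR, for all 10 libraries (circles) and without control replicates 1, 3 and 5 (squares). Gfap moves between -1.94 and 1.67, and the intervals of Scn7a and Cdh19 exclude 0 in the first of these fits and not in the second. The second fit keeps only control replicates 2 and 4. Cdh19 was 0.24 (SE 0.0785) in the first and 0.21 (SE 0.113) in the second, and Scn7a 0.26 (SE 0.105) and 0.14 (SE 0.108).

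Per kilobase of merged exons (GENCODE vM21), L1cam was the most abundant member, at 69.4 ± 11.6 CPM per kilobase in Kif2a_cKO and 67.6 ± 14.2 in control (SD, n = 5 each). Scn7a followed at 57.7 ± 5.42 in Kif2a_cKO and 48.2 ± 6.56 in control, and its libraries overlapped those of L1cam. Matn2 stood at 32.8 ± 4.10 in Kif2a_cKO and 29.4 ± 2.66 in control, and Cdh19 at 22.1 ± 2.27 in Kif2a_cKO and 18.7 ± 0.959 in control. Ncam1 had 11.99 ± 1.70 in Kif2a_cKO and 12.1 ± 1.18 in control. Between Scn7a, Matn2, Cdh19 and Ncam1 no 2 neighbours overlapped in any library. Sox2, at 9.04 ± 1.33 CPM per kilobase in Kif2a_cKO and 10.6 ± 3.23 in control, overlapped Ncam1. Gfap, at 5.58 ± 3.51 in Kif2a_cKO and 21.4 ± 26.1 in control, spanned 1.052 to 65.5 CPM per kilobase over the libraries and so had no fixed place in the order.

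Several members share their locus with another gene, and the strand setting of the counting is not given in the sources used here, so reads in the shared stretches are uncertain. L1cam overlaps Arhgap4 on its own strand and Avpr2 on the other. Opposite-strand genes overlap Gfap, Ncam1 and Matn2 (1 each), 2 unclassified same-strand loci overlap Cdh19, and Scn7a has 0 overlapping genes.

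Promoters are shown for the 3 members whose library profiles differed most plainly. Scn7a was highest in Kif2a_cKO 5 and lowest in control 3, Sox2 had the opposite extremes, and Gfap varied with astrocyte and oligodendrocyte genes. The sequences are from RefSeq (GRCm38.p6), run 5′ to 3′ on the gene's strand from 250 bases before to 50 bases after the RefSeq start, and lie at chr2:66784861-66785160 (minus), chr3:34649745-34650044 (plus) and chr11:102897151-102897450 (minus). Of the 7 members 4 matched this table. Capitals mark matches to 5 short motifs searched on both strands: the TATA box TATAAA, the box named CCAAT after its letters, the SOX core ACAAAG, the AP-1 site TGANTCA and the STAT site TTCNNNGAA.
Scn7a: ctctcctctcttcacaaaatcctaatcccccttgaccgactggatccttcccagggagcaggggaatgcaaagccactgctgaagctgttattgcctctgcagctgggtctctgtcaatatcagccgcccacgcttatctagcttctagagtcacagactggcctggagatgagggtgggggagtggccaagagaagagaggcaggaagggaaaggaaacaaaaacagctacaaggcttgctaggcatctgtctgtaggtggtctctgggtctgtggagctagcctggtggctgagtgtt
Sox2: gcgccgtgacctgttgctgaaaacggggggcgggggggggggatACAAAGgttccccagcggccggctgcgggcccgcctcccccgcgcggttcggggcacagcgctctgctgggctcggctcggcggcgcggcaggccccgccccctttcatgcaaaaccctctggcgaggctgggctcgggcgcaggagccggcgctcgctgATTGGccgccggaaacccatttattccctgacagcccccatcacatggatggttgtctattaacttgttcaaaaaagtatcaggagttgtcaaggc
Gfap: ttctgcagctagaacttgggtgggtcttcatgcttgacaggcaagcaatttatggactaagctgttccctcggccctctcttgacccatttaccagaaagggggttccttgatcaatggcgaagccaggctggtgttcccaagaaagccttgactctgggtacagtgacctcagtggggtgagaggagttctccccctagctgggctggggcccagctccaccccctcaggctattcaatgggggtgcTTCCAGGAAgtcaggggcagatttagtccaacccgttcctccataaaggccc

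The Scn7a window held none of the 5 motifs. The Sox2 window held 1 match to ACAAAG, at bases 45 to 50, a motif present in 18.7% of all 32851 promoters of the same length, and 1 to CCAAT on the reverse strand, at bases 205 to 209, present in 37.4%. The Gfap window held 1 STAT match across the start site, at bases 249 to 257, a motif in 8.30% of promoters. No marked motifs overlapped. TATAAA and TGANTCA, in 13.6% and 7.81% of promoters, were in none of the 3 windows. G and C made up 54.0% of the Scn7a window, 66.3% of that of Sox2 and 55.7% of that of Gfap, beside a median of 52.7% over all promoters. These matches describe letters and say nothing of binding.

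The genes with the library profile most like each member were found among 11845 genes with a mean of at least 5 CPM, by Pearson r over the 10 libraries after subtracting each group's mean log2 CPM. These r values are the highest of many and are given as a description. For Scn7a they were Ctsb, a lysosomal protease (r = 0.958), Lrpap1, a chaperone of LDL receptor family proteins (r = 0.954), and Slc9a9, an endosomal sodium-proton exchanger (r = 0.952). Cdh19 was most like Art3 (r = 0.966), the intermediate filament gene Vim (r = 0.939) and Abca8b (r = 0.936). Matn2 was most like Psph, an enzyme of serine synthesis (r = 0.951), the kinase gene Stk4 (r = 0.934) and Cdh19 itself (r = 0.920), the one case where a member was near the top for another. edgeR called none of these genes.

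L1cam was nearest to Trnp1 (r = 0.990), the beta-tubulin gene Tubb5 (r = 0.989) and the transcription factor gene Klf7 (r = 0.989), the last known for its role in sensory neuron development. Ncam1 was nearest to the proton pump subunit gene Atp6v0a2 (r = 0.914), to Slc29a3 (r = 0.903) and to Bcl11a (r = 0.903). For Gfap the nearest was Mobp, a myelin protein of oligodendrocytes (r = 0.989), then Prr18 (r = 0.985) and Timp4 (r = 0.978). Mobp had 136 ± 84.9 CPM in Kif2a_cKO and 398 ± 430.2 CPM in control (SD, n = 5 each). Sox2 was nearest to 4930402H24Rik (r = 0.962), Pdxp (r = 0.958) and Fgfrl1 (r = 0.956).

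Other genes reported in Remak cells were listed as 9 genes. All 9 were tested, 0 were called, 5 had a log2 fold change above 0, and the median was 0.085. Gap43, a growth-associated protein of regrowing axons and non-myelinating Schwann cells, had 371, 402, 392, 379 and 398 CPM in Kif2a_cKO 1 to 5, and 302, 342, 260, 380 and 367 CPM in control 1 to 5. Its mean was 388 ± 13.1 CPM in Kif2a_cKO and 330 ± 49.2 CPM in control (SD, n = 5 each), and it alone of the 9 was at an unadjusted p under 0.05 (edgeR adjusted p = 0.703). Of all tested genes 2.97% were higher at that level. Gap43 and Ngfr were chosen after their values were seen. Ngfr, the low-affinity neurotrophin receptor shared by neurons and Remak cells, had 654 ± 172 CPM in Kif2a_cKO and 572 ± 111 CPM in control (SD, n = 5 each, log2 fold change 0.19, edgeR adjusted p = 0.864). Apod, a lipid carrier and the most abundant of the list, had a log2 fold change of -0.13 (SE 0.142), with control 3 at 3519 CPM and the other 4 controls at 2269 to 2389 CPM. Itga1, a collagen-binding integrin subunit, had the largest difference in the list, a log2 fold change of 0.25 (SE 0.148, edgeR adjusted p = 0.732).

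Genes of signalling and adhesion between axons and Schwann cells in Remak bundles showed no call either. All 10 were tested, 5 were above 0, and the median was 0.0063. Gabbr1, a GABA-B receptor subunit and the most abundant of them, had 433 ± 54.4 CPM in Kif2a_cKO and 417 ± 20.8 CPM in control (SD, n = 5 each). Lrp1, an endocytic receptor of Schwann cells and many other cells, had 129, 144, 133, 133 and 141 CPM in Kif2a_cKO 1 to 5, and 153, 148, 242, 153 and 165 CPM in control 1 to 5. All 5 Kif2a_cKO libraries lay below all 5 controls, with a log2 fold change of -0.34 (SE 0.123, unadjusted p = 0.0161, edgeR adjusted p = 0.703), and control 3 was far above the rest of its group.

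Immature and repair Schwann cell genes had 7 of 9 members tested, with 0 called, 3 above 0 and a median of -0.059. Jun, the transcription factor that drives the repair state, had 94.1 ± 18.3 CPM in Kif2a_cKO and 89.7 ± 19.4 CPM in control (SD, n = 5 each, log2 fold change 0.069, SE 0.166). Olig1, known from repair Schwann cells and more widely from oligodendrocytes, had 7.75 ± 5.50 CPM in Kif2a_cKO and 44.3 ± 58.4 CPM in control (log2 fold change -2.49, SE 1.25). Gdnf and Artn, growth factors of repair cells, did not pass the edgeR filter on low counts. DESeq2 tested all 9, with 0 called and 2 lower at an unadjusted p under 0.05. In DESeq2 1716 of 22968 genes reached that level in either direction.

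General Schwann lineage genes (7 tested, 4 above 0, median 0.014) had 0 calls. Of the 12 myelinating Schwann cell genes all 12 were below 0, with a median of -0.32 and none called by edgeR. DESeq2 called 1 of them lower, against 0.17% of the genes it tested called in either direction. In edgeR 8 were lower at an unadjusted p under 0.05, against 4.01% of all tested genes. Mbp, a major myelin protein of both Schwann cells and oligodendrocytes, had 10465 ± 1971 CPM in Kif2a_cKO and 14334 ± 4128 CPM in control, and Mag, an adhesion protein of myelin, had 73.8 ± 14.7 CPM in Kif2a_cKO and 153 ± 92.4 CPM in control (SD, n = 5 each). Mag was at 137, 307 and 156 CPM in controls 1, 3 and 5. Controls 2 and 4, at 75.7 and 87.7 CPM, lay inside the Kif2a_cKO range of 54.7 to 90.7 CPM. Without control replicates 1, 3 and 5 the median was -0.23 for the myelinating genes and 0.14 for the members. The members then included Gfap at 1.67, whose positive sign the omission fixes. Scn7a, Cdh19, Matn2 and L1cam were lower than in the fit of all libraries, and Gfap, Sox2 and Ncam1 were higher. The omitted controls held the most Sox2 and the least L1cam of their group, so the moves of Sox2 and L1cam are fixed as well. Whether the 2 sets differ from each other was not tested.

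**Figure D5:**
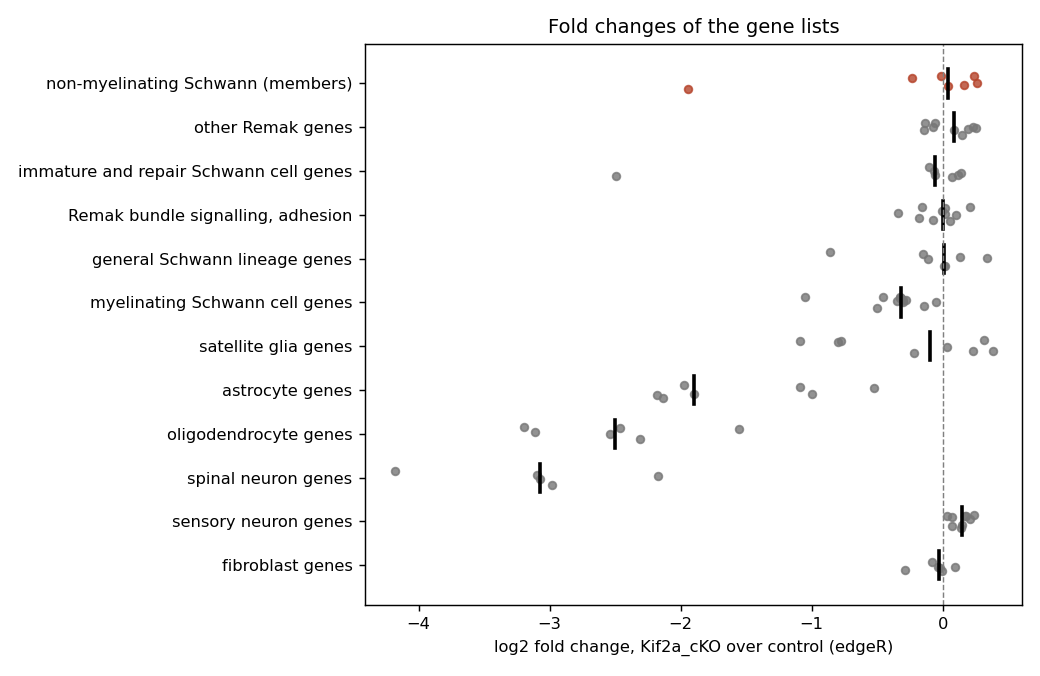
Log2 fold change (edgeR, Kif2a_cKO over control) of each tested gene in 12 gene lists, with a black bar for the list median. The markers sit near 0 except Gfap at -1.94, and the astrocyte, oligodendrocyte and spinal neuron genes all lie below 0.

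Satellite glia genes were split, with 4 of 8 above 0, a median of -0.093 and 0 called. At an unadjusted p under 0.05 in edgeR 3 were higher and 0 lower, against 2.97% and 4.01% of all tested genes. Apoe, the lipid carrier that is their most abundant transcript, had 4838 ± 439 CPM in Kif2a_cKO and 4126 ± 394 CPM in control, and Slc1a3, a glutamate transporter also made by astrocytes, had 18.9 ± 4.05 CPM in Kif2a_cKO and 39.7 ± 30.1 CPM in control (SD, n = 5 each). Without control replicates 1, 3 and 5 all 8 were above 0, with a median of 0.18. Glul, Kcnj10, Slc1a3 and Gja1, the genes below 0 in the fit of all libraries, were each higher in those controls than in the other controls. The omission therefore raises these genes and does not test their direction. All 9 sensory neuron genes were above 0 (median 0.15, 0 called). The neurofilament subunit genes Nefm and Nefl gave log2 fold changes of 0.21 (SE 0.175) and 0.24 (SE 0.135). Without the 3 controls 4 of the 9 were above 0.

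Oligodendrocyte genes (6 tested, all below 0, median -2.50) and spinal neuron genes (5 of 6 tested, all below 0, median -3.07) had 0 calls in edgeR, and DESeq2 called 1 spinal neuron gene lower. Opalin, an oligodendrocyte membrane protein, had 0.589 ± 0.405 CPM in Kif2a_cKO and 5.65 ± 7.53 CPM in control, and Slc6a5, the glycine transporter of inhibitory spinal neurons, had 3.26 ± 2.72 CPM in Kif2a_cKO and 28.6 ± 36.5 CPM in control (SD, n = 5 each). Slc18a3, the vesicular acetylcholine transporter, had 0.213 ± 0.187 CPM in Kif2a_cKO and 4.39 ± 5.67 CPM in control (edgeR adjusted p = 0.703). In the 3 lists of the central nervous system together, 18 of 19 genes were tested and all 18 were below 0. Control replicates 1, 3 and 5 were chosen for their high level of these genes, so leaving them out fixes the direction. The medians of astrocyte, oligodendrocyte and spinal neuron genes were then 1.22, 1.86 and 4.61, with 5 of 7, 6 of 6 and 4 of 5 tested genes above 0, and none called.

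Among ependymal genes 2 of 4 were tested (median -1.28, 0 called). Foxj1, a regulator of motile cilia, had 16.5 ± 4.41 CPM in Kif2a_cKO and 24.5 ± 13.4 CPM in control, and Enkur had 0.517 ± 0.119 CPM in Kif2a_cKO and 2.04 ± 1.86 CPM in control (SD, n = 5 each). Fibroblast genes (6 tested, 1 above 0, median -0.027, 0 called) included Dcn, a matrix proteoglycan at 715 ± 124 CPM in Kif2a_cKO and 718 ± 102 CPM in control, and Pdgfra, with a log2 fold change of -0.29 (SE 0.168). Of 17 close relatives of the members 15 were tested, with 10 above 0, a median of 0.047 and 0 called. The most abundant of these was Prph, an intermediate filament of sensory neurons related to Gfap, at 2406 ± 275 CPM in Kif2a_cKO and 2174 ± 368 CPM in control (SD, n = 5 each), and the largest difference was that of Sox1 (log2 fold change -2.52, SE 1.04, edgeR adjusted p = 0.703).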

How the data were processed

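The members, gene lists and alternatives were chosen with earlier results of these data known. The submitters' processing notes name mm10 and the tools cutadapt, STAR and DESeq2, with no versions. No source used here gives the read counter, annotation or strandedness. Raw counts by gene symbol, as deposited, entered every test. The authors also deposited a size-factor normalized signal, regularized log2 values, and a log2 fold change, p-value and false discovery rate of their own comparison, of which only the comparison is quoted.

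Counts were analysed in R 4.3.3 with edgeR 4.0.16: filterByExpr (minimum count 10, total 15), TMM scaling, a robust quasi-likelihood F test on group alone, and Benjamini-Hochberg adjustment over 17439 genes, tested on simulated data beforehand. SE is the log2 fold change divided by the square root of F. Log2 CPM used a prior count of 2. No library was a duplicate (chi-square per gene of at least 9.845 between libraries of a group). Precision comes from the spread between libraries of 17506135 to 73031457 counts. Alternatives tried were voom with sample weights (limma 3.58.1), DESeq2 1.42.0, other scalings and filters, a replicate block and left-out libraries. The covariate fit and the joint omission of controls 1, 3 and 5 were chosen after seeing the data. Named genes are Kif2a, Avil, the members, the most abundant gene and the largest change (mean of at least 1 CPM) of each of 13 other lists, and the 3 nearest profiles per member. An item that this rule would name is not reported here. Positions are from GENCODE vM21 and promoters from RefSeq. The replicate number was used as a block in an alternative only.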

Additional observations from a re-analysis of the deposited data

Results flagged for a closer look

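Among 96 sets of 5 libraries examined, covering the named genes and the list sums, 14 had a highest or lowest library whose gap to the nearest other library exceeded 0.71 of the set's range. Chance flags about 1 in 20 such sets, and the sets are not independent. In 12 of the 14 the library was control 3. Among the members only Gfap was so marked, with 276 CPM in control 3 against 82.6 CPM in the next control. In the same library Slc1a2 was at 303 CPM, Slc7a10 at 31.3 CPM, Opalin at 18.4 CPM and Slc18a3 at 14.04 CPM, and the astrocyte sum was 761 CPM, each the highest of the controls. Control 3 was also highest in Apod (3519 CPM), Lrp1 (242 CPM), Dcn (894 CPM), the sum of the other Remak cell genes (4376 CPM) and that of the immature and repair genes (317 CPM), and lowest in Nefl (1817 CPM). Apod made up most of the Remak sum there. In that list Ngfr, Gap43 and Csmd1 were lowest of the controls in control 3, and Cadm2 and Emp1 were highest. Olig1, known more widely from oligodendrocytes, held 143 CPM of the immature and repair sum. The other 2 of the 14 sets were in Kif2a_cKO 5, with the lowest Jun of its group (62.4 CPM) and the highest sum of fibroblast genes (2407 CPM).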

How the results depend on the processing

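In all 19 alternatives 0 members were called, with a lowest adjusted p of 0.400, and Scn7a, Cdh19 and Matn2 stayed above 0. Without control replicates 1, 3 and 5, chosen after seeing the data as the controls with the most central nervous system transcript, Gfap was 1.67, Sox2 0.085 and L1cam -0.21 (log2 fold change), and with the central nervous system covariate, also chosen then, Gfap was 0.19, Sox2 -0.067 and L1cam -0.080. In limma-voom with sample quality weights, which changes the test and the weighting together, Gfap was -0.87, Sox2 -0.070 and Ncam1 0.035. The median of the members was 0.14 in the fit without those controls and in the covariate fit. The middle value was that of Scn7a in the first and of Matn2 in the second. In both, Gfap, Sox2 and Ncam1 rose from their main values, while Scn7a, Cdh19, Matn2 and L1cam fell. Gfap went from below 0 to above it, which the omission of those controls fixes. Those controls also held the most Sox2 and the least L1cam of their group. Omitting them therefore raises Sox2 and lowers L1cam without testing either direction. Leaving out each library in turn gave ranges of 0.16 to 0.30 for Scn7a, 0.19 to 0.30 for Cdh19, -2.25 to -0.94 for Gfap, -0.080 to 0.049 for Ncam1, -0.079 to 0.13 for L1cam, 0.095 to 0.23 for Matn2, -0.33 to -0.047 for Sox2 and -0.033 to 0.13 for the median, with 0 called. Ncam1 was above 0 without Kif2a_cKO 5 (0.049) or control 3 (0.0095), and L1cam below 0 without Kif2a_cKO 2 (-0.033) or control 3 (-0.079).

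With the replicate number as a block 0 members were called, with Scn7a at 0.27, Cdh19 at 0.24, Gfap at -1.28 and a median of 0.046, and 0 of all genes were called, against 3 without the block. An unadjusted edgeR p under 0.05 was reached by 1499 genes with the block and 1217 without it. For Scn7a that p was 0.0111 with the block and 0.0282 without it, and for Cdh19 0.00869 and 0.00877. Same-numbered libraries correlated between -0.147 and 0.367 in their deviations from the group means, with 4 of 5 pairs above 0.1, and 7 of 10 libraries correlated best with their own number. This is a hint of pairing from the data. In the sample titles the libraries of each same-numbered pair also carry consecutive sample numbers. The main test takes no account of pairing. The labels give no shared litter, batch or day, and pair 4 was negative, so the block was kept as an alternative. The part of depth in the width of the Gfap interval was not tested.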
